A study of Mus musculus with 12 samples.

Results

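Tumours of mice given entinostat together with an antibody against PD-1 were compared with tumours of mice given the antibody alone. The samples were chosen by their titles, 3 libraries of the combination and 3 of the antibody, of 12 in the series. Bulk RNA-seq was made from dissected, flash-frozen lung tumour of mice with floxed Rb1 (fl/fl), floxed p53 (fl/fl) and a Cre-activated Myc T58A allele (lsl/lsl), a genetically engineered model of small cell lung cancer. Every group carried this genotype and received Ad5CGRP-Cre, a virus whose Cre recombinase is driven by a neuroendocrine promoter and was instilled into the trachea, at 8 weeks of age in the cohort that the labels describe. Both groups compared here received the anti-PD-1 antibody at 10 mg/kg by intraperitoneal injection over 4 weeks, and the combination mice also received oral entinostat at 15 mg/kg daily for 28 days. The comparison therefore asks what entinostat added in the presence of the antibody. Entinostat alone against control, 3 libraries each, asked the same without the antibody and shared no library with it. For the combination, one label lists the antibody without entinostat, and the titles, which list both, were followed. All 12 libraries carry the batch label 2. The labels do not say which vehicle or isotype the control libraries received, or whether each library is a different mouse, and the p-values cover only the variation among these libraries, which may be partly technical.

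Entinostat inhibits class I histone deacetylases, enzymes that remove acetyl groups from histone tails and act within corepressor complexes such as CoREST, NuRD and SIN3. Blocking them is known to alter transcription in both directions, and in neuroendocrine tumours to act on genes of the neuroendocrine state. PD-1 is an inhibitory receptor of T cells, and its blockade is meant to release their activity against tumour cells.

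Total counts ranged from 31295987 to 37076865 in these 6 libraries. Levels are given as CPM, counts scaled to library size and not to gene length, and libraries are listed in the order of replicates 1, 2 and 3. Chga, a neuroendocrine secretory granule protein, was at 41.0, 52.5 and 56.1 CPM with the antibody and 48.2, 30.6 and 97.8 CPM with the combination, so the neuroendocrine label of the tissue held in every library. Rb1 stood at 53.0 to 81.7 CPM with the antibody and 36.4 to 54.3 CPM with the combination. Whole-gene counts do not show the floxed exons and so do not check the deletion. Normal lung contributed unequally: Sftpc, the surfactant gene of alveolar type II cells, was at 1.24, 164 and 55.7 CPM with the antibody and at 179, 165 and 5.45 CPM with the combination. The structural RNAs Rpph1, Rn45s and Rmrp took 25.6%, 36.4% and 20.5% of counts with the antibody, mean 27.5% ± 8.15 (SD, n = 3), and 17.9% ± 0.171 (SD, n = 3) with the combination. Along the second principal component, 17.4% of the variance, combination library 3 lay apart from the other libraries. The part of these differences in the results below was not tested, except where a fit with the alveolar markers or without a library is given.

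No gene passed an adjusted p of 0.05 (edgeR quasi-likelihood test, Benjamini-Hochberg over 17426 genes), and the smallest adjusted p was 0.201. An unadjusted p under 0.05 was reached by 2168 genes, 12.4%, of which 1056 were higher with the combination (6.06%) and 1112 lower (6.38%). DESeq2 called 424 genes (2.43%), 171 higher and 253 lower. In 3340 genes, 19.2%, the ranges of the 3 and 3 libraries did not overlap. In what follows, "apart" means that all 3 combination libraries lay on one side of all 3 antibody libraries, and 9.92% of genes were apart and higher and 9.25% apart and lower. A log2 fold change (log2FC) is the combination over the antibody, with its standard error (SE).

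The 25 genes with the smallest p-values, taken after their values were seen because none passed, were 10 higher and 15 lower with the combination. The higher ones included matrix and adhesion genes. Col11a1, a fibrillar collagen chain, was at 10.2, 5.08 and 4.35 CPM with the antibody and at 48.4, 27.5 and 49.8 CPM with the combination (log2FC 2.68, SE 0.40, unadjusted p = 2.78e-05, edgeR adjusted p = 0.201). Every combination library held more Col11a1 than every antibody library. Plod1, a lysyl hydroxylase that modifies collagen, was at 8.59, 10.6 and 10.5 CPM against 34.4, 24.3 and 45.0 CPM (log2FC 1.80, SE 0.31). Itgb5, an integrin subunit that binds vitronectin, was at 14.9, 9.63 and 8.07 CPM against 40.1, 32.2 and 26.6 CPM (log2FC 1.60, SE 0.30). Fat1, a large protocadherin, was at 63.1, 106 and 62.0 CPM against 278, 167 and 214 CPM (log2FC 1.51, SE 0.28). These 4 genes were apart, and each had an edgeR adjusted p of 0.201.

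Itpr3, a calcium release channel of the endoplasmic reticulum, was at 13.7, 9.00 and 8.61 CPM with the antibody and 67.7, 59.3 and 68.8 CPM with the combination. Its log2FC was 2.64 (SE 0.51), and its lowest combination library lay far above its highest antibody library. Arpc1b, a subunit of the actin-nucleating Arp2/3 complex, was at 29.9, 31.3 and 29.1 CPM against 77.6, 68.9 and 69.6 CPM (log2FC 1.26, SE 0.20), whereas the related subunit gene Arpc5l was lower, with a log2FC of -0.93 (SE 0.18). The other higher genes were the zinc finger genes Zscan26 and Zfp595, the recombination gene Rad51b and the ring finger gene Lonrf3, with log2FCs of 0.78, 1.86, 1.67 and 0.89.

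Among the lower genes, Hist4h4, a histone H4 gene, had the smallest p of all (1.34e-05). It was at 541, 624 and 450 CPM with the antibody and at 242, 232 and 176 CPM with the combination (log2FC -1.31, SE 0.18). Scg5, which encodes the granin-like chaperone 7B2 of prohormone convertase 2, was at 112, 55.7 and 82.0 CPM against 19.2, 26.9 and 21.8 CPM (log2FC -1.88, SE 0.35). Rbm3, a cold-inducible RNA-binding protein, was at 996, 818 and 1305 CPM against 367, 461 and 281 CPM (log2FC -1.49, SE 0.27). All 3 of these genes were apart. Lsm7, a subunit of the Sm-like ring that binds U6 RNA, was at 180, 193 and 212 CPM against 102, 89.6 and 68.1 CPM (log2FC -1.17, SE 0.19). Atpif1, the inhibitor of the mitochondrial ATP synthase, was at 441, 345 and 564 CPM against 191, 235 and 206 CPM (log2FC -1.09, SE 0.19). The remaining lower genes were Phpt1, Hist1h3a, Ola1, Hmgb3, Rpl35, Arpc5l, Mmp15, Atcay, Taf5 and Ndufb6, with log2FCs from -1.48 for Atcay to -0.93. All 25 genes were apart, and DESeq2 called each of them.

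**Figure D1:**
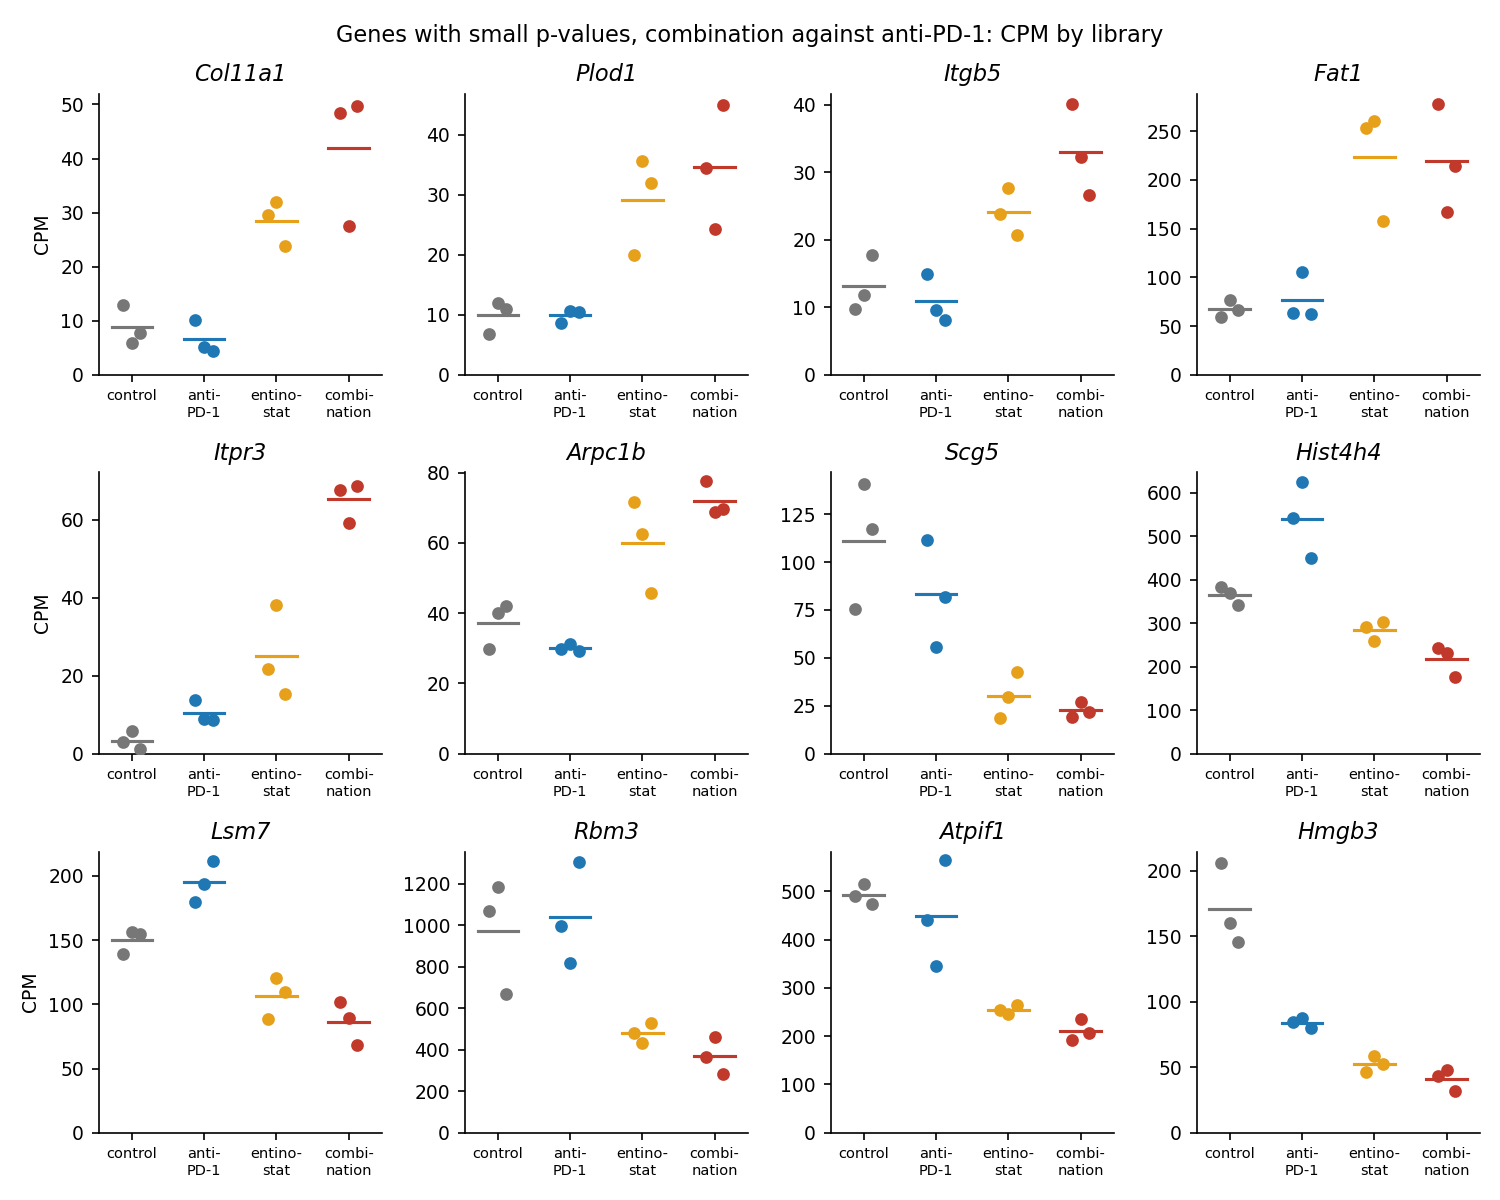
CPM (y axis, linear from 0) of 12 genes chosen from the 25 with the smallest p-values, in the 3 libraries of each of the 4 groups (x axis); points are libraries and bars group means. In each panel the 3 combination points lie on one side of the 3 anti-PD-1 points, and the entinostat points lie on the same side of the control points.

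Promoter windows of 2 of the higher and 2 of the lower leading genes are shown as examples of genes apart in both comparisons, with and without the antibody, chosen after their values were seen. Each is a RefSeq window of 300 bases on GRCm38.p6, from 250 bases before to 50 after the annotated start, read 5′ to 3′ on the gene's strand. The windows lie at chr3:114030290-114030589 on the plus strand, chr17:27057054-27057353 on the plus strand, chr2:113829042-113829341 on the minus strand and, for Hist4h4 under its RefSeq symbol H4f16, chr6:136804382-136804681 on the minus strand. Capitals mark matches on either strand to any of 5 motifs. They are the GC box bound by Sp1, spelled GGGCGG, the E-box bound by MYC and MAX, spelled CACGTG, the CCAAT box, the TATA box, spelled TATAAA, and the AP-1 site, spelled TGANTCA.

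Col11a1: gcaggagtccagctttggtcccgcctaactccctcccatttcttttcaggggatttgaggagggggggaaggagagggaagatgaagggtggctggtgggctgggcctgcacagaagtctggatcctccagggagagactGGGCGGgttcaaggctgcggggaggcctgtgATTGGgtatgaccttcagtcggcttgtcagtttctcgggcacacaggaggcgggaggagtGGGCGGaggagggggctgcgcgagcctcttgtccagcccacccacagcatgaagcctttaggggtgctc
Itpr3: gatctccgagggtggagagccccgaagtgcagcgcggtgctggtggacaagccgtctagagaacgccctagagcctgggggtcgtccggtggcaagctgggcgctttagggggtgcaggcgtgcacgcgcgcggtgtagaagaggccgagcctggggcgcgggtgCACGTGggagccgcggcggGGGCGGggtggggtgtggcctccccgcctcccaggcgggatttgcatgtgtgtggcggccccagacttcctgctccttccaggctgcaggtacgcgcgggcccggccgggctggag
Scg5: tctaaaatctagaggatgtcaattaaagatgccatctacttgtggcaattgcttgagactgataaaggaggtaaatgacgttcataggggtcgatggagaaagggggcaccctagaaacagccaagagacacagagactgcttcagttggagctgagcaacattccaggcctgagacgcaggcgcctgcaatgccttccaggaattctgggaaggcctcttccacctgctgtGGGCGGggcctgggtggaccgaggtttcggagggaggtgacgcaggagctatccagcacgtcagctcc
Hist4h4: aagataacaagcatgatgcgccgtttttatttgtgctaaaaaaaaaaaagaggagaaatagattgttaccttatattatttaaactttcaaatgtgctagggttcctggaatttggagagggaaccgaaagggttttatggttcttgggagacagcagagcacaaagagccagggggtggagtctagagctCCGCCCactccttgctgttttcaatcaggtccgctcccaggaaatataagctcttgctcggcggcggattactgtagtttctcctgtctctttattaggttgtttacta

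The GC box occurred 2 times in the Col11a1 window and 1 time in each of the other windows, and 35.7% of all 32851 RefSeq windows hold it. The Itpr3 window also held an E-box, present in 7.15% of windows, and the Col11a1 window held a CCAAT box, present in 37.4%. No window held the TATA box letters, found in 13.6% of all windows, or those of the AP-1 site, found in 7.81%. Matches describe the letters of these windows only.

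The same genes were then read in the entinostat and control libraries, which took no part in choosing them, although all 12 libraries share one estimate of the spread. Of the 25 genes, 23 had the same sign there, 22 were apart in that direction, and 14 passed an adjusted p of 0.05 in that direction; none passed in the opposite one. Over all tested genes, 70.9% had the same sign and 4.94% passed in the same direction, and entinostat against control called 919 genes in all (5.27%), 226 higher (1.3%) and 693 lower (3.98%). The count of 14 rests on few libraries. It was 7 without control library 1, 6 without entinostat library 1, 3 without entinostat library 2, 0 without entinostat library 3, and 0 with the alveolar marker level as a covariate.

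Scg5 had nearly the same difference in both settings, with a log2FC of -1.88 with the antibody and -1.87 without it (edgeR adjusted p = 0.0198 for entinostat against control). Itpr3 differed by 2.64 and 2.93 on the log2 scale (adjusted p = 0.0176 in the latter), at 2.96, 5.79 and 1.11 CPM in control and 21.7, 38.2 and 15.3 CPM with entinostat. For Col11a1 the values were 2.68 and 1.68 (adjusted p = 0.0337 in the latter, edgeR), and for Plod1 1.80 and 1.56 (adjusted p = 0.0225). Hist1h3a, Hmgb3 and Lonrf3 had the smallest adjusted p among the 25 in entinostat against control, 0.0104 each by edgeR. Rpl35 and Taf5 were the exceptions in sign: their log2FCs of -1.30 and -1.32 with the antibody stood beside 0.05 and 0.07 without it.

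The interaction, which tests whether entinostat's effect differed with and without the antibody, called no gene with edgeR, 1052 genes (6.04%) at an unadjusted p under 0.05, and 60 genes (0.344%) with DESeq2. No gene is therefore described as particular to the combination by the main test. The 5 smallest interaction p-values were those of Snord104, Scarna6, Lars2, Snora74a and Cbr1, with edgeR adjusted p from 0.284 to 0.303. Scarna6, a Cajal body RNA that guides modification of spliceosomal RNA, was at 563, 502 and 584 CPM with the antibody, 255, 239 and 183 CPM with the combination, 158, 200 and 132 CPM in control and 233, 360 and 487 CPM with entinostat. It was thus lower with the combination than with the antibody, and higher with entinostat than in control, where its edgeR adjusted p was 0.0333. Snord104 had log2FCs of -0.75 and 1.30 in the 2 comparisons, and Snora74a -0.89 and 1.57. Cbr1, a carbonyl reductase, had -0.40 and -1.88.

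**Figure D2:**
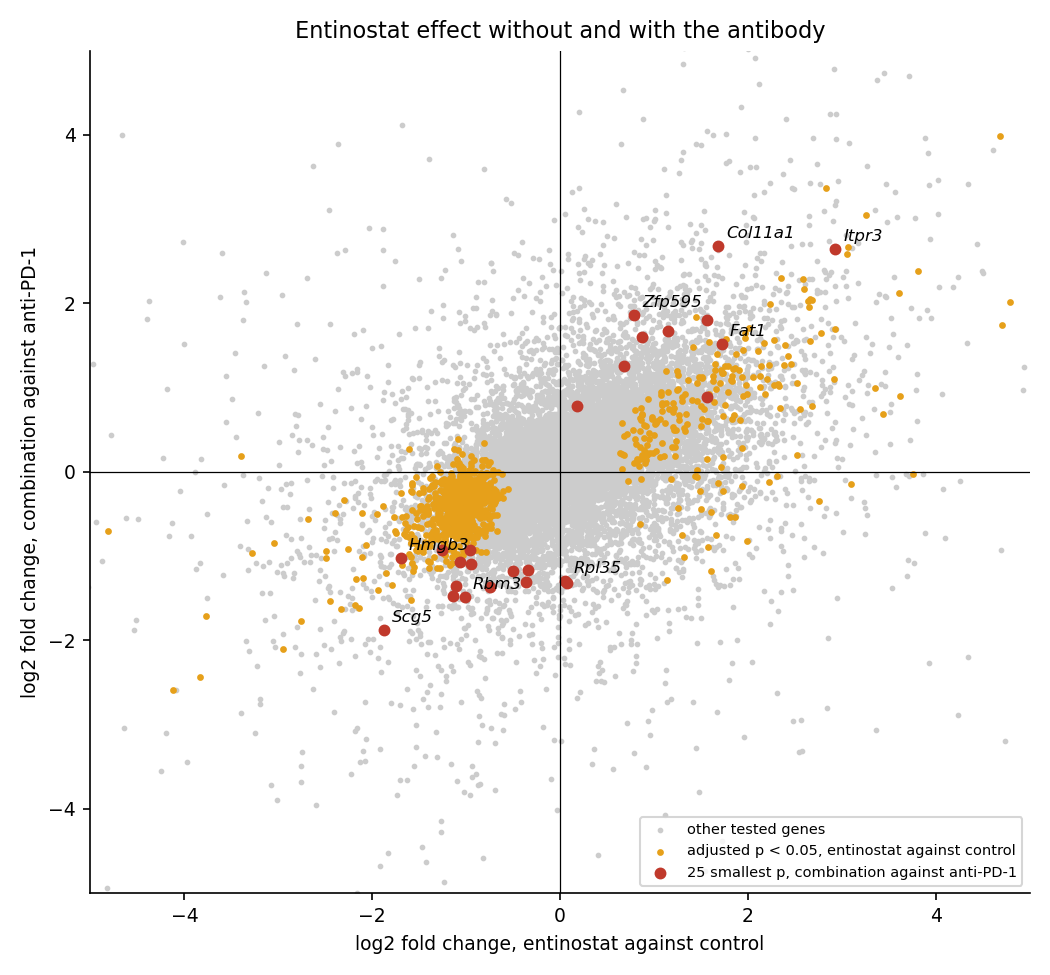
Log2 fold change of each tested gene for entinostat against control (x axis) and for the combination against anti-PD-1 (y axis); 67 genes lie beyond the axes. Orange points passed in entinostat against control. The 25 genes with the smallest p (red) mostly have the same sign on both axes, with Rpl35 near 0 on the x axis.

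Read from the other side, of the 226 genes called higher with entinostat than in control, 198 were also higher with the combination than with the antibody (87.6%). Of the 226, 128 were apart and higher (56.6%), against 9.92% of all tested genes. The 226 had a median log2FC of 0.77 with the antibody and 1.57 without it. Of the 693 genes called lower with entinostat, 663 were lower with the combination (95.7%). Of the 693, 339 were apart and lower (48.9%, against 9.25% of all tested genes), and the medians were -0.42 and -1.06. These calls rest on few libraries: the 919 fell to 2 without entinostat library 3 and to 0 with the alveolar covariate. Among the genes at an unadjusted p under 0.05 in the combination comparison, 1920 of 2168 had the same sign in entinostat against control and 407 passed there in that direction. Across all genes the 2 sets of log2FCs had a Pearson correlation of 0.47 and a Spearman correlation of 0.53, given as a description, since genes are not independent replicates. The selected fold changes without the antibody were chosen for passing there, so their larger medians are not a comparison of effect size.

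The largest fold changes were ranked among genes apart with an unadjusted p under 0.01 and a mean log2 CPM of at least 1. That mean was over the 6 libraries, and predicted genes were skipped. Chosen after their values were seen, these genes included developmental regulators. Gli1, the transcription factor that reports Hedgehog signalling, was at 1.30, 0.353 and 0.967 CPM with the antibody and 6.17, 5.94 and 9.78 CPM with the combination (log2FC 3.05, SE 0.64, edgeR adjusted p = 0.201). It was also higher with entinostat than in control (log2FC 3.25, edgeR adjusted p = 0.0225). Sfrp2, a secreted Wnt modulator, was at 0.334, 1.06 and 2.18 CPM against 17.5, 11.7 and 7.99 CPM (log2FC 3.38, SE 0.75). Ccnd2, the D-type cyclin 2, was at 9.86, 9.70 and 3.02 CPM against 93.0, 31.6 and 33.3 CPM (log2FC 2.81, SE 0.67). Hamp2, a hepcidin gene, had the largest log2FC of the genes so ranked, 6.15 (SE 2.00). The rise, from 0.0668, 0.106 and 1.03 CPM to 7.98, 12.5 and 67.0 CPM, was mostly in combination library 3. Over all tested genes, without these limits, the largest log2FC was 8.52.

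Under the same limits, the largest differences downward were in Sim1, Hoxb3, Hoxb2, Frmpd4, Scg2 and Calca. Over all tested genes, without these limits, the lowest log2FC was -7.42. Hoxb2, an anterior homeobox gene, was at 16.1, 13.3 and 11.8 CPM with the antibody and 0.715, 0.755 and 0.402 CPM with the combination (log2FC -4.45, SE 1.03). The neighbouring Hoxb3 was at 41.3, 25.97 and 22.3 CPM against 1.60, 1.69 and 0.427 CPM (log2FC -4.59, SE 1.223). Sim1, a neural transcription factor, was at 8.02, 18.2 and 191 CPM against 0.257, 1.21 and 4.85 CPM. Being apart was a condition of this ranking, and the highest Sim1 level was in a single antibody library. Of the 12 genes with the largest downward differences so ranked, 9 had the same sign in entinostat against control and 0 passed there. Of the 12 largest upward, 12 had the same sign and 6 passed. Fitting the 6 libraries alone called 3 genes, Hoxb2 (log2FC -4.48), Itpr3 (2.62) and Zfhx4 (3.43), each at an edgeR adjusted p of 0.0393.

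Neuroendocrine genes were lower with the combination in 19 of 24 tested, 6 of them at an unadjusted p under 0.05 and none higher at that level. Of these genes 7 were apart and lower and 0 apart and higher, with a median log2FC of -0.61, against 0.05 over all tested genes. Scg2, the granin secretogranin II, was at 95.0, 10.1 and 29.7 CPM with the antibody and 1.60, 2.21 and 6.74 CPM with the combination. Calca, which encodes calcitonin and CGRP, was at 109, 9.32 and 42.5 CPM against 2.89, 7.09 and 4.90 CPM. For both genes the spread among antibody libraries was wide, and library 1 was the highest. Cpe, the carboxypeptidase that trims prohormones, was at 206, 114.3 and 223 CPM against 103, 114.0 and 86.8 CPM (log2FC -0.84), the closest pair differing by little. Uchl1, a neuronal deubiquitinase, was at 427, 245 and 328 CPM against 109, 209 and 177 CPM (log2FC -1.01, SE 0.38). Over fits that left out 1 of the 6 libraries the list's median ranged from -0.79 to -0.36, the latter without anti-PD-1 library 1.

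Neurod1, a transcription factor of neuroendocrine lineages, was at 16.1, 20.1 and 149 CPM with the antibody and 9.92, 27.8 and 126 CPM with the combination. In each group library 3 had the highest Neurod1, and the groups overlapped. The 11 tested genes of a NEUROD1-type list had a median log2FC of 0.05.

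Neuronal differentiation genes were lower in 21 of 23 tested, with 6 apart and lower, 0 apart and higher and a median log2FC of -0.81. Stmn3, a microtubule-destabilising stathmin, was at 125, 87.4 and 166 CPM with the antibody and 27.8, 49.4 and 53.0 CPM with the combination (log2FC -1.54, SE 0.40). Elavl4, a neuronal RNA-binding protein, was at 185, 247 and 114 CPM against 53.3, 59.4 and 98.2 CPM (log2FC -1.37, SE 0.38). Rtn1, a reticulon of neuroendocrine cells, was at 126, 44.5 and 202 CPM against 18.6, 34.5 and 43.3 CPM (log2FC -1.95, SE 0.56). All 3 were apart. In entinostat against control Stmn3 passed (log2FC -2.45, edgeR adjusted p = 0.0149) and so did its relative Stmn1 (-1.55, adjusted p = 0.0283). In bulk tissue, fewer cells of a type and less RNA per cell cannot be told apart.

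Genes of matrix, adhesion and morphogen signalling were mostly higher with the combination. Of 18 Hedgehog and cilium genes 15 were higher, 5 were apart and higher and 0 apart and lower, with a median log2FC of 0.85. The Hedgehog co-receptor Boc was at 10.7, 25.3 and 18.5 CPM against 106, 34.9 and 80.6 CPM (log2FC 2.02, SE 0.61). The transducer Smo was at 2.91, 6.81 and 6.29 CPM against 22.8, 8.55 and 25.2 CPM (log2FC 1.82, SE 0.77). Combination library 2 was the lowest of its group for Boc and Smo. Ptch1, a receptor and target of the pathway, was at 27.7, 140 and 54.7 CPM against 33.8, 44.2 and 61.3 CPM and overlapped. Leaving out a library left between 3 and 7 Hedgehog genes higher at an unadjusted p under 0.05, against 6 with all libraries, the fewest without anti-PD-1 library 1.

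Of 24 genes of BMP and TGF-beta ligands and their modulators, 20 were higher and 9 apart and higher, with a median log2FC of 0.81. That median ranged from 0.54 to 1.03 with 1 of the 6 libraries left out. At an unadjusted p under 0.05, 6 were higher and 1 lower. With a library left out 2 to 7 were higher, the fewest without anti-PD-1 library 1. Bmp8b, a BMP ligand, was at 0.735, 1.13 and 2.12 CPM against 5.83, 5.94 and 13.6 CPM (log2FC 2.67, SE 0.63). Smad6, an inhibitory SMAD induced by BMP signalling, was at 1.00, 0.988 and 1.45 CPM against 4.86, 2.06 and 9.93 CPM (log2FC 2.29). Both were low in every antibody library. Among 24 Wnt genes 6 were apart and higher and 0 apart and lower, the receptor gene Fzd2 among them at 4.55, 6.07 and 1.51 CPM against 19.2, 21.3 and 25.5 CPM (log2FC 2.45).

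All 15 YAP1 and TEAD genes had a log2FC above 0, with a median of 0.74 (0.44 without anti-PD-1 library 1), and 3 were apart. Yap1, a transcriptional coactivator that is low in neuroendocrine small cell tumours, was at 3.01, 10.9 and 7.71 CPM with the antibody and 31.8, 18.7 and 17.8 CPM with the combination (log2FC 1.66, SE 0.55, edgeR adjusted p = 0.273). Its target Cyr61, a matricellular protein, was at 5.55, 7.20 and 9.16 CPM against 14.5, 17.0 and 12.0 CPM (log2FC 0.99). At an unadjusted p under 0.05, 4 of these genes were higher, and 1 was higher without anti-PD-1 library 1.

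Integrin and laminin subunit genes were higher in 21 of 23, with 6 apart and higher, 0 apart and lower and a median log2FC of 0.76. Lama5, a laminin chain of basement membranes, was at 48.9, 74.8 and 72.8 CPM against 146, 98.2 and 232 CPM (log2FC 1.28, SE 0.37). Among 20 matrix proteases and their inhibitors 6 were apart and higher and 2, Adamts5 and Mmp15, apart and lower, with log2FCs of -1.66 and -1.36. Adamts14, a protease that processes procollagen, was at 1.27, 1.59 and 1.96 CPM against 12.9, 5.48 and 10.7 CPM (log2FC 2.59, SE 0.55). Of 43 collagen genes 37 were higher and 5 apart and higher, a share near the 9.92% of all tested genes. Summed over the collagens, however, the antibody libraries held 1626, 1113 and 557 CPM and the combination libraries 1737, 2316 and 1356 CPM, so the totals overlapped.

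Fibroblast and mural cell genes differed alongside this group, and their part in it was not tested. Of 21 tested, 18 were higher and 3 apart and higher, with a median log2FC of 0.83 (0.37 without anti-PD-1 library 3 and 1.24 without anti-PD-1 library 1), and their summed level was 390 to 1383 CPM with the antibody and 1038 to 2021 CPM with the combination. Acta2, smooth muscle actin, was at 26.9, 16.6 and 17.6 CPM against 47.1, 42.5 and 58.3 CPM (log2FC 1.27, SE 0.27), yet had a log2FC of -0.17 in entinostat against control. Col1a1, the defining fibroblast collagen, was at 164, 91.6 and 19.9 CPM against 177, 238 and 120 CPM, so it overlapped. Endothelial Pecam1 was at 16.8, 18.7 and 16.3 CPM against 32.1, 30.5 and 10.6 CPM.

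**Figure D3:**
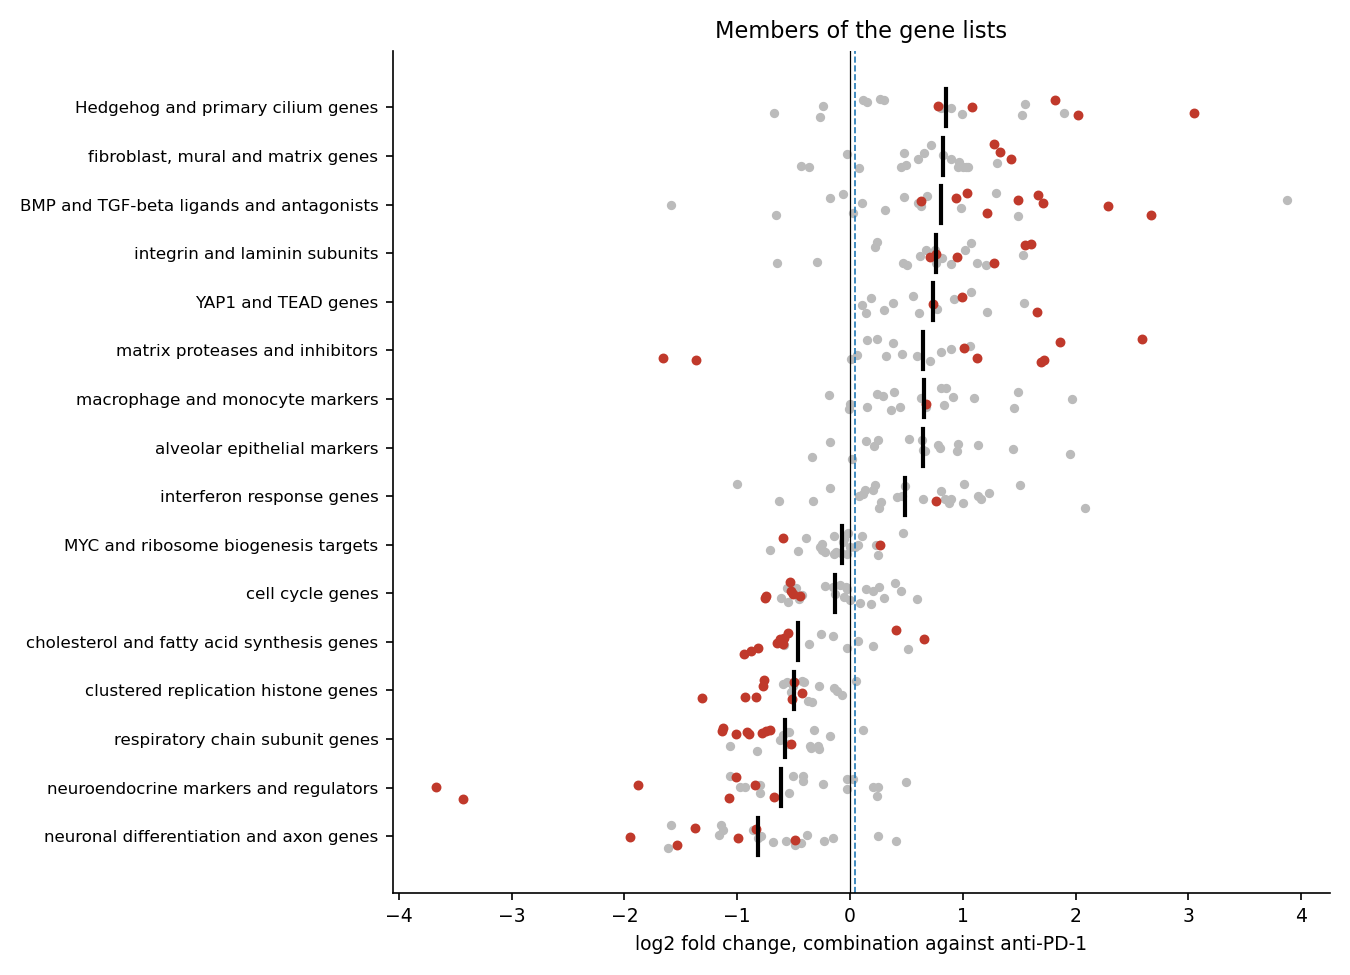
Log2 fold change, combination against anti-PD-1 (x axis), of each tested member of 16 gene lists (y axis); red points are genes whose 3 and 3 libraries do not overlap, grey points the others, black bars list medians and the dashed line the median of all genes, 0.05. Hedgehog, BMP, integrin and YAP1 lists sit to the right and neuronal, neuroendocrine, respiratory chain and histone lists to the left.

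Calcium handling genes were split by direction. Trpv4, a calcium-permeable channel, was at 1.24, 3.85 and 4.96 CPM with the antibody and 14.7, 6.94 and 22.1 CPM with the combination (log2FC 2.12). Ryr3, a ryanodine receptor of neurons, was at 46.8, 7.73 and 14.9 CPM against 5.03, 6.64 and 7.06 CPM. Of 21 genes, 5 were apart and higher, Itpr3 among them, and 1 apart and lower.

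Genes of respiration, translation and splicing were lower with the combination. Of 24 respiratory chain subunit genes 23 were lower and 9 apart and lower, with a median log2FC of -0.58. With 1 of the 6 libraries left out, that median ranged from -0.88 (without combination library 2) to -0.48. At an unadjusted p under 0.05, 12 were lower, and 6 to 16 with a library left out, the fewest without anti-PD-1 library 3. Cox5b, a cytochrome oxidase subunit, was at 187, 158 and 204 CPM against 82.0, 111 and 80.8 CPM (log2FC -1.01). Ndufa4, another respiratory subunit, was at 734, 389 and 670 CPM against 303, 307 and 209 CPM (log2FC -1.13). Both were apart. Of all 86 genes named Nduf, Uqcr, Cox or Atp5, 77 were lower, and 24 passed as lower in entinostat against control.

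Cytosolic ribosomal protein genes were lower in 77 of 79, with 32 apart and lower, 0 apart and higher and a median log2FC of -0.51, against -0.14 for entinostat against control. Summed, they made 165300, 135800 and 203500 CPM with the antibody and 127500, 104800 and 96730 CPM with the combination. Rpl35 was at 2171, 1709 and 3509 CPM against 1171, 906 and 919 CPM. These genes have many processed copies, and how reads shared among copies were counted is not known here, so single values are uncertain. Leaving out a library left 17 to 53 of them lower at an unadjusted p under 0.05, against 36 with all, the fewest without combination library 3, and the median was -0.34 without anti-PD-1 library 3. Of 24 Sm and LSm protein genes 21 were lower, with 13 apart and lower, Lsm7 among them, and 1 apart and higher.

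Replication histone genes, whose transcripts mostly lack a poly(A) tail, were lower in 20 of 21, with 8 apart and lower and a median log2FC of -0.50 (-0.28 without anti-PD-1 library 2). Hist1h3a was at 63.1, 72.5 and 63.7 CPM against 32.7, 37.9 and 33.9 CPM (log2FC -0.93, SE 0.17), and passed in entinostat against control (-1.26, edgeR adjusted p = 0.0104). Near-identical histone copies make the assignment to a single gene uncertain. Small nucleolar and Cajal body RNAs, most of them encoded in introns of host genes, summed to 7795, 6478 and 7091 CPM with the antibody and 4177, 4179 and 3488 CPM with the combination, which were apart. In control the sum was 2033, 3640 and 3871 CPM and with entinostat 4285, 6335 and 6866 CPM. Of 109 such RNAs 85 were lower with the combination, 22 apart and lower and 1 apart and higher (median log2FC -0.37, and -0.21 without anti-PD-1 library 3), whereas 16 passed as higher in entinostat against control (median 0.94). Rpph1, the RNA of ribonuclease P, varied alongside: it was at 135340, 221500 and 112120 CPM with the antibody and 75520, 54628 and 54958 CPM with the combination (log2FC -1.34, SE 0.30). Whether poly(A) selection differed between libraries was not tested.

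**Figure D4:**
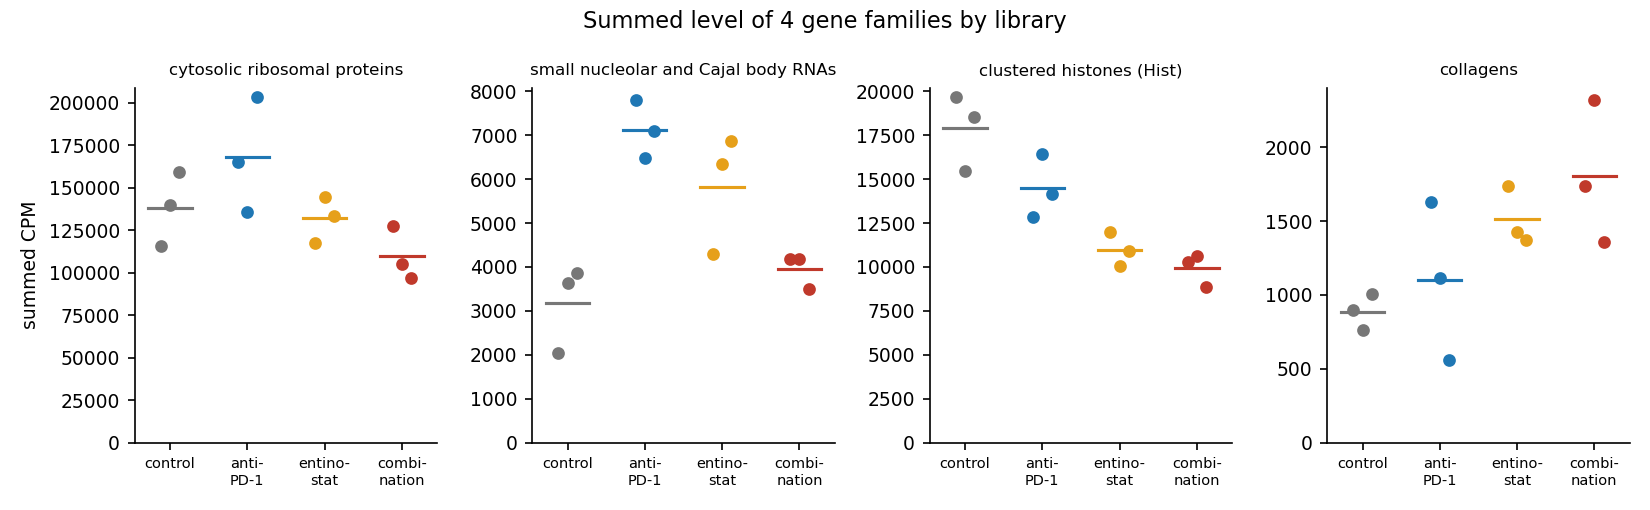
Summed CPM (y axis, linear from 0) of 4 gene families in the 3 libraries of each group (x axis); points are libraries and bars group means. Small nucleolar and Cajal body RNAs are at 6478 to 7795 CPM with anti-PD-1 and at 3488 to 4179 CPM with the combination, while the collagen sums of these 2 groups overlap.

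Fold change also followed transcript length. Among the 95.5% of tested genes with a length in GENCODE vM21, the shortest quartile by longest transcript had a median log2FC of -0.07, with 164 genes higher and 431 lower at an unadjusted p under 0.05. In the longest quartile the median was 0.12, with 378 higher and 157 lower. Of the 15 lower leading genes 8 were in the shortest quartile, among them Lsm7, Rpl35, Atpif1 and Ndufb6, and of the 10 higher ones 0 were. For entinostat against control the medians of these 2 quartiles were -0.13 and 0.22. The part of RNA integrity or fragment selection in this was not tested.

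**Figure D5:**
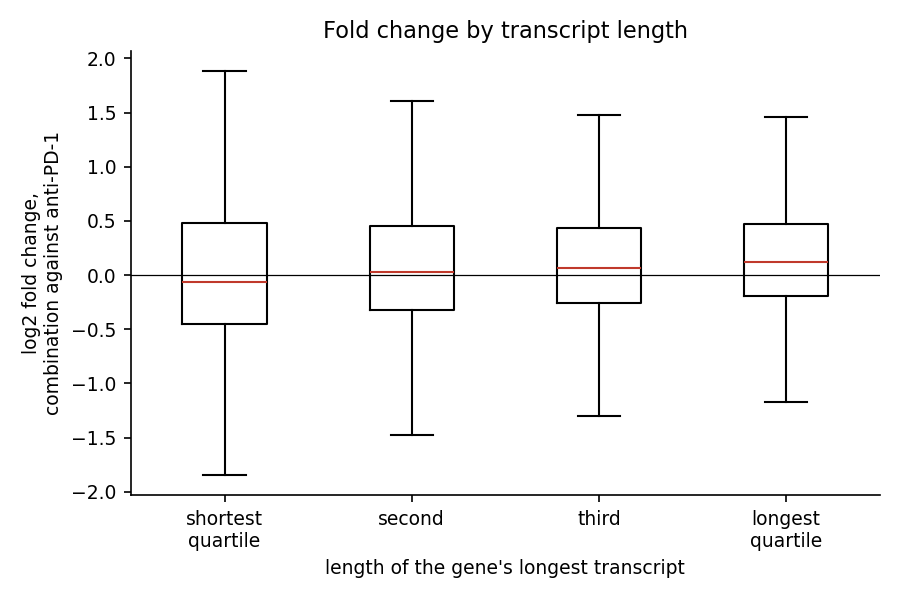
Log2 fold change, combination against anti-PD-1 (y axis), by quartile of the gene's longest transcript (x axis); boxes span the quartiles of genes, red lines are medians and whiskers reach 1.5 times the box, with points beyond not drawn. The medians run from -0.07 in the shortest to 0.12 in the longest quartile.

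Cell cycle genes held both directions. Of 29, 6 were apart and lower and 0 apart and higher, with a median log2FC of -0.13. That median was -0.07 without anti-PD-1 library 2 or combination library 3, and -0.20 without anti-PD-1 library 3. Pcna, the sliding clamp of DNA replication, was at 283, 226 and 421 CPM against 186, 191 and 176 CPM (log2FC -0.75, SE 0.22). Mki67, a proliferation marker, was at 573, 718 and 317 CPM against 1054, 644 and 735 CPM (log2FC 0.60), and overlapped. Myc, the transgenic driver, was at 99.8, 165 and 79.1 CPM against 209, 157 and 211 CPM (log2FC 0.75, SE 0.31, edgeR adjusted p = 0.369). Combination library 2 lay below antibody library 2, so Myc was not apart. In entinostat against control Myc passed (log2FC 1.53, edgeR adjusted p = 0.0248). The MYC target list, 24 genes, had a median of -0.07, and 0.012 without anti-PD-1 library 3.

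Other regulators of growth also differed. Cdkn1b, the p27 inhibitor of cyclin-dependent kinases, was at 160, 130 and 137 CPM against 80.5, 75.6 and 77.8 CPM (log2FC -0.87, SE 0.21). Cdkn1a, the p21 inhibitor often raised by deacetylase inhibitors, was at 8.69, 8.57 and 17.8 CPM against 6.37, 8.35 and 21.2 CPM and overlapped. Jun, a subunit of AP-1, was at 46.2, 50.0 and 48.9 CPM against 18.7, 24.3 and 29.8 CPM (log2FC -0.99, SE 0.22). That was close to its value in entinostat against control (-1.03, edgeR adjusted p = 0.0253). The 20 AP-1 and immediate early genes had a median log2FC of -0.47 with the antibody and 0.81 without it. That difference between medians was not tested. Summed, the list was at 272, 259 and 281 CPM with the antibody and 190, 192 and 202 CPM with the combination. In control the sum was 219, 219 and 240 CPM and with entinostat 226, 203 and 201 CPM, so it did not rise there. Dusp1, an immediate early phosphatase, had a log2FC of -1.20 with the antibody and -0.09 without it. The difference between those 2 values did not pass (edgeR adjusted p = 0.773).

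Genes of cholesterol and fatty acid synthesis and its regulation were lower in 13 of 18, with 8 apart and lower and 2 apart and higher. Idi1, an isomerase of the cholesterol pathway, was at 44.7, 36.2 and 47.9 CPM against 19.5, 30.3 and 17.4 CPM (log2FC -0.94, SE 0.25). Srebf1, which encodes a transcription factor of lipid synthesis, was higher, at 31.8, 37.9 and 46.4 CPM against 64.6, 52.1 and 66.2 CPM (log2FC 0.66, SE 0.20). At an unadjusted p under 0.05, 6 of the list were lower, and between 1 and 3 when any 1 of the 6 libraries was left out. Of 17 endoplasmic reticulum stress genes 10 were lower and 7 higher, with 6 apart and lower and 1 apart and higher. Herpud1, of protein degradation there, was at 59.0, 42.8 and 94.5 CPM against 25.4, 38.5 and 22.2 CPM (log2FC -1.19).

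The drug's own targets differed little. Hdac1 was at 53.4, 61.9 and 61.9 CPM with the antibody and 58.5, 70.0 and 76.6 CPM with the combination, and Hdac3 at 74.0, 75.3 and 73.7 CPM against 66.8, 83.2 and 68.6 CPM. Hdac2 was apart and lower, at 131, 136 and 137 CPM against 105, 120 and 107 CPM, with an unadjusted p of 0.203 (edgeR). Of 19 tested genes often raised by deacetylase inhibitors, 1 was apart and higher and 2 apart and lower, with a median log2FC of -0.06.

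Pdcd1, Cd274 and Cd8a overlapped between the groups. Pdcd1, which encodes PD-1, was at 0.969, 0.141 and 0.544 CPM with the antibody and 0.143, 0.503 and 0 CPM with the combination. Cd274, its ligand PD-L1, was at 4.41, 3.63 and 4.86 CPM against 6.92, 5.94 and 3.85 CPM. Cd8a, of cytotoxic T cells, was at 1.74, 0.353 and 0.363 CPM against 0.657, 0.553 and 0.452 CPM. The 14 tested T cell markers summed to 20.6 to 44.4 CPM with the antibody and 34.0 to 39.8 CPM with the combination, so the sums overlapped. Of these, 0 were apart and higher and 1, Cd5, a receptor on T cells, was apart and lower, at 1.60, 0.388 and 0.514 CPM against 0.229, 0.327 and 0.176 CPM. Tcf7, a transcription factor of T cells, was the 1 marker at an unadjusted p under 0.05, at 4.11, 2.22 and 3.32 CPM against 3.06, 7.09 and 12.2 CPM, and overlapped. Cd5 and Tcf7 were chosen after their values were seen.

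Of 27 interferon response genes 23 had a log2FC above 0, with a median of 0.49, and 1, Irf1, was apart. Irf1, an interferon-induced transcription factor, was at 6.89, 6.99 and 10.1 CPM against 11.5, 15.6 and 13.5 CPM (log2FC 0.76, SE 0.34). Leaving out 1 of the 6 libraries moved the list's median between 0.10 and 0.83, and without combination library 2 none of the list reached an unadjusted p under 0.05. Macrophage markers varied with these genes: their sum was 598, 917 and 655 CPM with the antibody and 1469, 1675 and 424 CPM with the combination, lowest in combination library 3. Their part was not tested. Of 21 genes of MHC class I presentation 13 had a log2FC above 0, with a median of 0.31. None was apart and higher, and 2 were apart and lower, a share near the 9.25% of all tested genes. B2m, the light chain, was at 53.2, 34.4 and 60.8 CPM against 84.2, 98.6 and 30.0 CPM. Alveolar markers, 17 genes, had a median log2FC of 0.65 and 0 apart, and -0.14 without combination library 1.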

How the data were processed

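RNA-seq of 12 mouse lung tumour libraries, 3 per group, was used, and the groups came from the titles. The authors deposited one table of raw counts per gene, 22738 rows. Libraries were poly(A)-selected, per the labels' protocols. The submitters' processing notes list the build mm9 and, with no role stated, STAR 2.5.4a, Trimmomatic 0.36, Trim Galore, R 3.5.1 and DESeq2 1.22.2. Annotation, strand setting and treatment of multiply mapping reads: not given in the sources used here. Low counts are more often even than odd (65.3% to 77.2% of values from 1 to 20), which may come from counting both mates of a pair.

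In R 4.3.3, edgeR 4.0.16 fitted a mean per group to all 12 libraries (filterByExpr, TMM factors, robust quasi-likelihood test), leaving 17426 genes, with Benjamini-Hochberg adjustment within each comparison and a threshold of 0.05. CPM uses the TMM-scaled library sizes. DESeq2 1.42.0, other scalings and filters, covariates and left-out libraries were alternatives. Only the main edgeR fit was run on simulated data, and the outcome is not reported here. Each of the 6 libraries held 31295987 counts or more. Every pair of replicates among the 6 differed by more than counting noise (a chi-square of at least 110.4 for each degree of freedom).

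Members, 55 gene lists (969 symbols, 920 tested) and the naming rule were chosen with earlier results of these data known. The rule took the 12 largest changes each way among genes past the threshold, up to 4 passing members per list or else the 2 most expressed, the 5 smallest interaction p-values and a fixed set (Yap1, Neurod1, Cdkn1a, Cd274, Pdcd1, Hdac1 to Hdac3, Trp53, Rb1, Myc and 1 gene not reported here). As no gene passed, most genes named were chosen after their values were seen, mainly for a small p; list members were likewise chosen, and not all lists are reported. Trp53 was at 8.40 to 19.0 CPM in these 6 libraries. Promoters are RefSeq's.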

Additional observations from a re-analysis of the deposited data

How the results depend on the processing

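The main count of 0 genes held under other scalings, no filter, halved counts, removal of structural RNAs, alveolar and Xist covariates, the replicate block (0, with 1855 at an unadjusted p under 0.05) and each left-out library. Fitting the 6 libraries alone gave 3 genes, 2 higher and 1 lower, and DESeq2 424, 171 higher and 253 lower. Genes at an unadjusted p under 0.05 ranged from 1392 (without combination library 1) to 2576 when a library was left out. Entinostat against control called 561 genes with upper quartile factors, 321 with the replicate block, 0 with the alveolar covariate, 2396 with DESeq2, and 2 (without entinostat library 3) to 1002 with a library left out. The interaction called 60 genes with DESeq2. Of the 25 leading genes, 0 passed in entinostat against control with the alveolar covariate and 0 to 15 with a library left out, against 14; with the replicate block 10 did. The cause was not tested.

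Among the genes followed through these fits, only Chga reversed in sign, at -0.34 without combination library 3 (range -0.34 to 0.55 over left-out libraries). Not every gene named above was followed in this way. Genes with 1 dominant library, such as Neurod1, may depend on that library. The alveolar median was -0.17 with the alveolar covariate, by construction, and ranged from -0.14 to 1.31 with a library left out. The MYC target median ranged from -0.20 to 0.012 (without anti-PD-1 library 3). Upper quartile factors moved the median of all genes to 0.11, from 0.05. No pairing by replicate number was evident: same-numbered deviations correlated at -0.11, -0.05 and 0.23, and differently numbered ones at -0.18 to 0.28. So few values cannot exclude a pairing. Counts of list members without a library were added after seeing the data.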

Other observations

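Xist, expressed from the inactive X chromosome of females, was at 3125, 4408 and 1.06 CPM with the antibody and 1.77, 2431 and 4953 CPM with the combination, so both groups held libraries of both kinds. Notch2, a Notch receptor, was at 25.9, 61.0 and 17.4 CPM with the antibody and 109, 61.8 and 70.1 CPM with the combination (log2FC 1.21, unadjusted p = 0.0184, edgeR). Bmf, a BH3-only protein that promotes apoptosis, was at 14.7, 15.6 and 9.03 CPM against 49.4, 19.9 and 52.8 CPM (log2FC 1.64), and Bok, another BCL2 family member, at 77.7, 43.5 and 69.1 CPM against 30.5, 36.9 and 34.9 CPM (log2FC -0.90). Both pairs were apart without passing the adjusted threshold. Pvr, a ligand of the checkpoint receptor TIGIT, was at 1.67, 1.91 and 1.57 CPM against 7.72, 3.14 and 4.37 CPM (log2FC 1.56). These genes were chosen after their values were seen.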
